A study of Homo sapiens with 12 samples.

Results

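The Hippo pathway is represented here by 10 genes: the kinases LATS1 and LATS2, the scaffold genes AMOTL1 and AMOTL2, the coactivators YAP1 and WWTR1 (which encodes TAZ), the DNA-binding factor TEAD1, and the target genes CCN1, CCN2 and ANKRD1. Each was found by its symbol and had 1 probe set carrying its symbol alone, so that they are 10 of the 18417 gene symbols among the 29094 probe sets tested. RNA came from U2OS-ERα cells, a human osteosarcoma line that carries estrogen receptor α, and was hybridised to 12 Affymetrix Human Gene 1.0 ST arrays. Cells were first transfected with siRNA at 50 nM, either non-targeting or against SRC-1, a coactivator of steroid receptors whose gene is NCOA1. Ethanol (the vehicle) or 17-B-estradiol followed for 3 h. The 4 groups are non-targeting siRNA with vehicle, non-targeting siRNA with estradiol, SRC-1 siRNA with vehicle and SRC-1 siRNA with estradiol, with 3 arrays each, labelled as biological replicates. All 4 groups share the 1 cell line, the transfection and the charcoal-stripped serum, so no untransfected cells or full-serum cells stand beside them. P-values measure only the spread between these replicates.

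In the Hippo pathway, the LATS kinases phosphorylate YAP and TAZ, which keeps both coactivators out of the nucleus. Unphosphorylated YAP and TAZ bind TEAD factors on DNA and switch on genes such as CCN1, CCN2 and ANKRD1. Motin family proteins such as AMOTL1 and AMOTL2 hold YAP at junctions and actin, and AMOTL2 and LATS2 are themselves induced by YAP, as a feedback. Transcript levels do not show phosphorylation or the place of YAP in the cell, and neither was measured on these arrays.

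Estradiol lowered CCN2 with either siRNA and raised CCN1 with SRC-1 siRNA, while ANKRD1 did not pass the test. CCN2, a secreted matricellular protein also known as CTGF, fell 1.25-fold with non-targeting siRNA and 1.27-fold with SRC-1 siRNA. CCN1, its relative also known as CYR61, rose 1.32-fold with SRC-1 siRNA. AMOTL2 rose 1.19-fold and 1.24-fold with the 2 siRNAs, and WWTR1 fell 1.19-fold with SRC-1 siRNA. SRC-1 siRNA lowered CCN1 1.26-fold in vehicle-treated cells. LATS2, AMOTL1, YAP1, TEAD1 and ANKRD1 passed the test in no comparison made, nor did LATS1 in the comparisons of 2 groups.

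The siRNA target was checked first. NCOA1 read 8.72 to 8.83 log2 with non-targeting siRNA and vehicle against 5.62 to 6.18 with SRC-1 siRNA, 7.60-fold lower, and 9.02 to 9.15 against 6.79 to 6.92 under estradiol, 4.64-fold lower. Among the SRC-1 siRNA cells, NCOA1 was thus higher with estradiol than with vehicle, by 1.00 log2 (limma adjusted p = 2.90e-04). The 2 SRC-1 siRNA groups therefore differ in remaining NCOA1 RNA as well as in treatment, and the part of this in their comparison was not tested. ESR1, the receptor gene, had a mean of 12.16 log2 with non-targeting siRNA and vehicle and was called in none of the comparisons. The mesenchymal marker VIM and the bone matrix gene SPARC averaged 12.44 and 12.58 log2 there, while IBSP, a late osteoblast gene, and PTPRC, a blood cell marker, had 4.87 and 4.17, below the lower quartile of every array (5.17 to 5.24). The epithelial keratin genes KRT8 and KRT18 read 11.14 and 11.93 log2 there, and CDH1 5.89. Of the 5 epithelial markers 1 rose with estradiol: KRT19, by 2.13 ± 0.09 log2 (SE) with non-targeting and by 1.56 ± 0.09 with SRC-1 siRNA, further than any Hippo gene. KRT19 was also 1.35-fold lower with SRC-1 siRNA under estradiol, a call lost in 5 of the 12 fits without 1 array. Of 7 bone markers, estradiol with SRC-1 siRNA lowered COL1A2 (1.16-fold; lost in 10 of the 12 fits), and SRC-1 siRNA lowered ALPL (1.18-fold under vehicle, lost in 7, and 1.35-fold under estradiol). Of 4 mesenchymal markers, SRC-1 siRNA lowered THY1 under vehicle (1.21-fold; lost in 11) and raised CDH2 under estradiol (1.19-fold; lost in 1, without estradiol array 1 of the SRC-1 siRNA cells). Limma called 0 of 3 blood and 0 of 4 endothelial markers in the 4 comparisons of 2 groups, with 0 at an unadjusted p under 0.05. Over all probe sets, 1.21% to 6.88% were called in these 4 comparisons. The part of these markers in the results was not tested. Array medians lay between 6.85 and 6.92 log2, and every member read above them on every array. The arrays average over each culture, so fewer cells expressing a gene and less RNA per cell cannot be told apart. The 4203 probe sets left out of the tests as likely controls also read differently by treatment: their mean deviation was -0.16 to -0.02 log2 in vehicle arrays and -0.003 to 0.18 in estradiol arrays. With this mean as a covariate, the NCOA1 rise with estradiol in SRC-1 siRNA cells was 0.53 log2 and not called (limma adjusted p = 0.461). That fit also lost the COL1A2, THY1 and CDH2 calls and the KRT19 call for SRC-1 siRNA. It kept the ALPL calls and the KRT19 calls for estradiol.

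TEAD factors recognise the bases GGAATG, and the promoters of CCN2, ANKRD1 and AMOTL2 are shown because all 3 are known YAP targets that carry this motif, while CCN2 fell with estradiol, AMOTL2 rose and ANKRD1 passed no test. RefSeq windows (GRCh38.p14) of 250 bases before to 50 after the transcription start were found for 8 of the 10 members. The motif, searched on both strands, is in capitals, and positions count from the start, with -1 the base before it. The CCN2 sequence lies at chr6:131951373-131951622 on the minus strand and ends at -1, with matches beginning at -169, -104 and -95. The ANKRD1 sequence lies at chr10:90921088-90921337 on the minus strand and also ends at -1, with matches beginning at -220 and -128. For AMOTL2, which has 2 annotated starts with a window, 30 bases at chr3:134374499-134374528 on the minus strand hold a match on the opposite strand, at -69 from 1 of these starts. The window of the other start, at chr3:134375368-134375667, had 0 matches.
CCN2: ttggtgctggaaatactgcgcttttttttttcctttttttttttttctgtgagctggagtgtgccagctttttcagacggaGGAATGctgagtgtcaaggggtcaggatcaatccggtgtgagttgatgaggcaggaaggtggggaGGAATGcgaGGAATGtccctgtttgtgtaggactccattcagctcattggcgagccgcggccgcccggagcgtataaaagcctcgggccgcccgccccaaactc
ANKRD1: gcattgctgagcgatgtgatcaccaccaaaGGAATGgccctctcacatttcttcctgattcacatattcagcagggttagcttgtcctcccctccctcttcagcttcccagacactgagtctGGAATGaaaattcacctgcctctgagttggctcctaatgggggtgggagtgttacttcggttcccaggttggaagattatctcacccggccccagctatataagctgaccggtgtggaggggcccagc
AMOTL2: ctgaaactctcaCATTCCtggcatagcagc

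At least 1 GGAATG was found in 14.0% of the 35116 windows of all genes, at least 2 in 1.37% and at least 3, as in CCN2, in 0.128%. YAP1 and LATS2 had 1 match each, at -162 and, after the start, at 10. The windows of LATS1, AMOTL1 and WWTR1 had 0. AP-1 was searched loosely as TGANTCA, with any middle base where the usual motif has C or G. A match that does not overlap those above was in the windows of ANKRD1 (TGATTCA) and LATS1 (TGAATCA), neither with C or G there. This loose form was in 7.71% of all windows. The palindromic estrogen response element was in the window of 0 of the 8 members and in 0.0570% of all windows. These are matches of letters in short windows, and no binding was measured.

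The first comparison asks how estradiol acts on these genes in cells that keep SRC-1. A gene is called where limma gives p under 0.01 before adjustment and under 0.05 after Benjamini-Hochberg adjustment over all probe sets tested. Estradiol with non-targeting siRNA raised 1 member (AMOTL2) and lowered 1 (CCN2), while 2.73% of all probe sets were called (1.85% as raised, 0.873% as lowered). The comparisons below share arrays with one another, so their values are given side by side only. Groups did not overlap for 4 of the 10 members (LATS1, AMOTL2, WWTR1 and CCN2) and for 21% of all probe sets. The median difference of the members was 0.01 log2, beside -0.01 for all probe sets tested.

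CCN2 read 11.48, 11.40 and 11.41 log2 with non-targeting siRNA and vehicle, and 11.11, 11.17 and 11.03 with estradiol. Every estradiol array lay below every vehicle array. The means were 11.43 ± 0.05 and 11.11 ± 0.07 (SD, n = 3), a difference of -0.32 ± 0.06 log2 (SE; limma adjusted p = 0.00935). Among all probe sets, 97.0% had a difference no larger than this one.

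AMOTL2 read 8.98, 8.92 and 9.02 log2 under vehicle and 9.30, 9.25 and 9.12 under estradiol. The groups do not overlap, and estradiol array 3 is the nearest to the vehicle arrays. The difference was 0.25 ± 0.06 log2 (SE; limma adjusted p = 0.0471), just inside the threshold. The call was lost in 9 of the 12 fits without 1 array, at adjusted p from 0.0669 to 0.170, and it was kept without estradiol array 3 or without vehicle array 1 or 3 of the SRC-1 siRNA cells. It was also lost in a fit to the 6 compared arrays (0.128), with renewed quantile normalization (0.0584), with median centring (0.0596) and with all probe sets tested (0.0597). Over every alternative fit the difference stayed between 0.21 and 0.30 log2.

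WWTR1 read 9.02, 9.02 and 8.99 log2 under vehicle and 8.84, 8.85 and 8.83 under estradiol. The SDs were 0.02 and 0.01 log2, and the groups do not overlap. The difference was -0.17 ± 0.05 log2 (SE) and did not pass (adjusted p = 0.104), although it passed without the lowest 40% of probe sets (0.0413). CCN1 differed by 0.13 ± 0.05 log2 (adjusted p = 0.308), with 11.37, 11.31 and 11.30 under vehicle against 11.50, 11.53 and 11.35 under estradiol. Its lowest estradiol array lay below its highest vehicle array.

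The other 6 members differed by -0.05 to 0.08 log2 with non-targeting siRNA. ANKRD1, a nuclear cofactor with ankyrin repeats, had -0.05 (95% interval -0.17 to 0.07), and YAP1 had 0.02 (-0.08 to 0.11). LATS2 had -0.01 (-0.11 to 0.10), TEAD1 0.03 (-0.07 to 0.12) and AMOTL1 0.01 (-0.13 to 0.15). LATS1 had 0.08 (-0.03 to 0.18), with all 3 estradiol arrays just above the vehicle arrays. These intervals bound what 3 arrays against 3 could miss, and they do not show that the genes were unaffected.

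**Figure D1:**
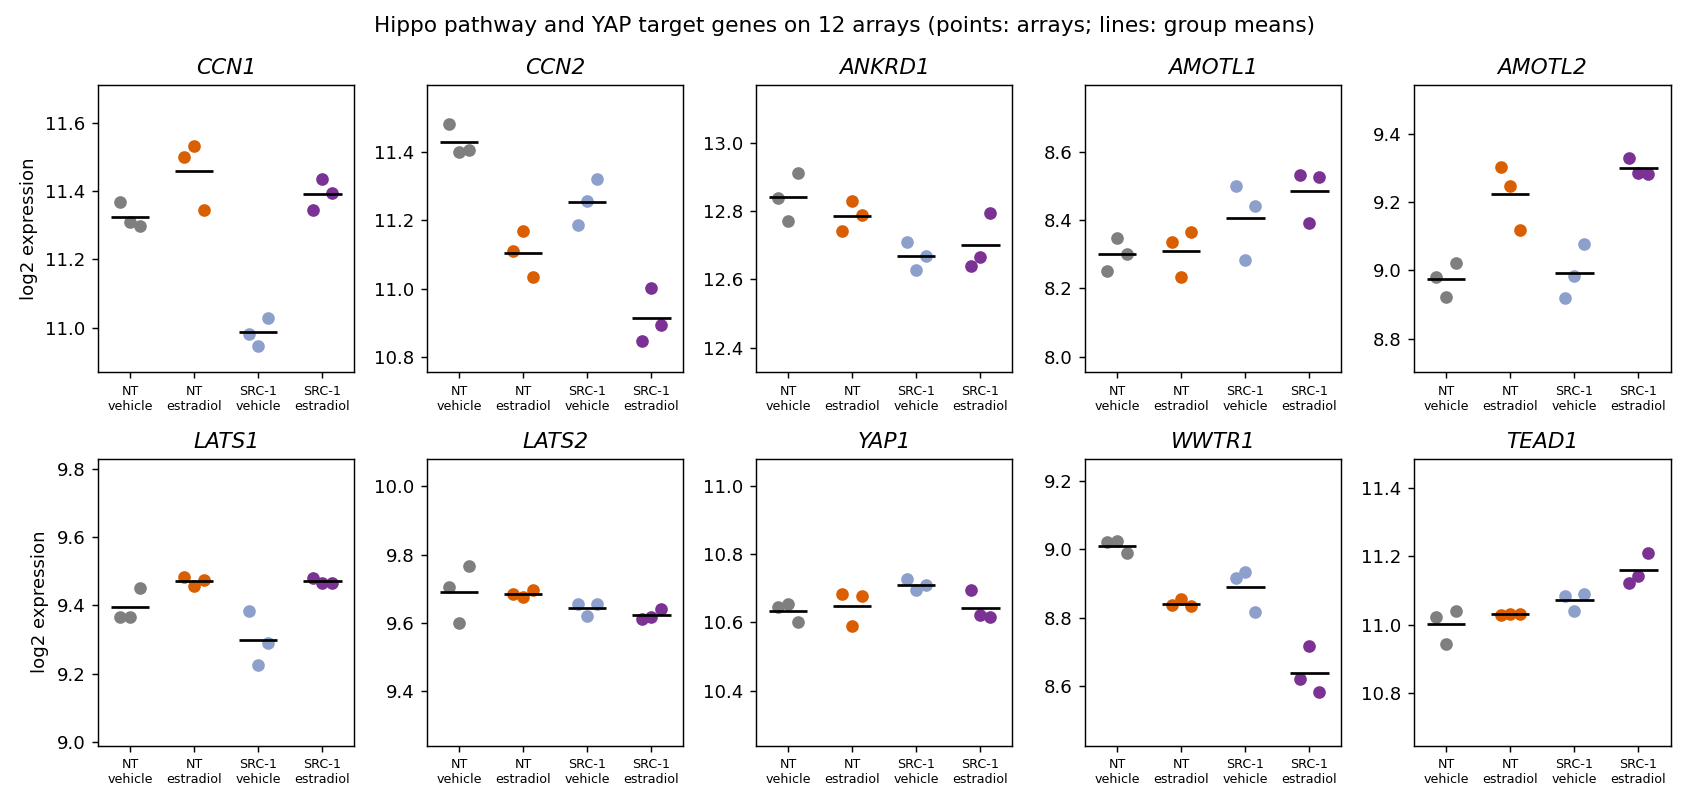
Log2 expression (vertical axes, all of the same span, centred on each gene's mean) of the 10 genes in the 4 groups (horizontal axis, NT for non-targeting and SRC-1 for SRC-1 siRNA), with a point for each of the 12 arrays and a line for each group mean. CCN2 and WWTR1 step down with estradiol under both siRNAs, AMOTL2 steps up, and CCN1 is lowest in the SRC-1 siRNA arrays with vehicle (10.95 to 11.03).

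With SRC-1 depleted, the same question gave more calls. Estradiol raised CCN1 and AMOTL2 and lowered CCN2 and WWTR1, 4 of the 10 members, where 6.88% of all probe sets were called (4.49% as raised, 2.39% as lowered). Groups did not overlap for 7 of 10 members and for 25.8% of all probe sets. The members' median difference was 0.05 log2, beside -0.02 over all.

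CCN1 read 10.98, 10.95 and 11.03 log2 with SRC-1 siRNA and vehicle, and 11.35, 11.43 and 11.39 with estradiol. All 3 estradiol arrays stood above all 3 vehicle arrays, by at least the width of either group. The difference was 0.41 ± 0.05 log2 (SE; adjusted p = 0.00108), a 1.32-fold rise with a 95% interval from 1.22 to 1.44. CCN1 was the largest of the members' differences in either estradiol comparison.

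CCN2 read 11.19, 11.26 and 11.32 log2 with SRC-1 siRNA and vehicle, and 10.85, 11.00 and 10.89 with estradiol, a difference of -0.34 ± 0.06 (SE; adjusted p = 0.00474). The groups do not overlap, and the size is close to that with non-targeting siRNA. CCN1 and CCN2, often read together as reporters of YAP activity, were thus called in opposite directions on the same 6 arrays.

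AMOTL2 read 8.92, 8.98 and 9.08 log2 under vehicle against 9.33, 9.29 and 9.28 under estradiol, a difference of 0.31 ± 0.06 (SE; adjusted p = 0.00928). The estradiol arrays lie close together, well above the vehicle arrays. WWTR1 read 8.92, 8.93 and 8.82 log2 under vehicle against 8.62, 8.72 and 8.58 under estradiol, a difference of -0.25 ± 0.05 (SE; adjusted p = 0.00962). Its groups do not overlap either, and a fit to these 6 arrays alone no longer called it (0.0808).

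LATS1 read 9.38, 9.23 and 9.29 log2 under vehicle against 9.48, 9.47 and 9.46 under estradiol, a difference of 0.17 ± 0.05 (SE; adjusted p = 0.0546), just outside the threshold. It was called without the first of these vehicle arrays, the highest of them, at 0.21 log2 (0.0201). LATS1 was also called without the lowest 40% of probe sets (0.0239), with a trended and robust variance (0.0196) and with array weights (0.0382). TEAD1 and YAP1 had 0.09 and -0.07 log2, with groups that do not overlap, and neither was called. LATS2, AMOTL1 and ANKRD1 lay between -0.02 and 0.08, with overlapping groups.

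When each array's mean over the 4203 likely controls entered as a covariate, none of these estradiol calls was kept. The estimate for CCN1 with SRC-1 siRNA was then 0.44 ± 0.13 log2 (SE; adjusted p = 0.286), and that for AMOTL2 was 0.40 ± 0.13 (0.367). CCN2 was at -0.24 ± 0.13 (0.614) and WWTR1 at -0.16 ± 0.11 (0.679). With non-targeting siRNA, CCN2 was at -0.27 ± 0.08 (0.187) and AMOTL2 at 0.29 ± 0.08 (0.166). CCN1 and AMOTL2 thus kept their size with larger errors, and CCN2 and WWTR1 were smaller. The covariate was lower in all 6 vehicle arrays than in all 6 estradiol arrays, so a hormone effect and a shift of these probe sets cannot be told apart in that fit.

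**Figure D2:**
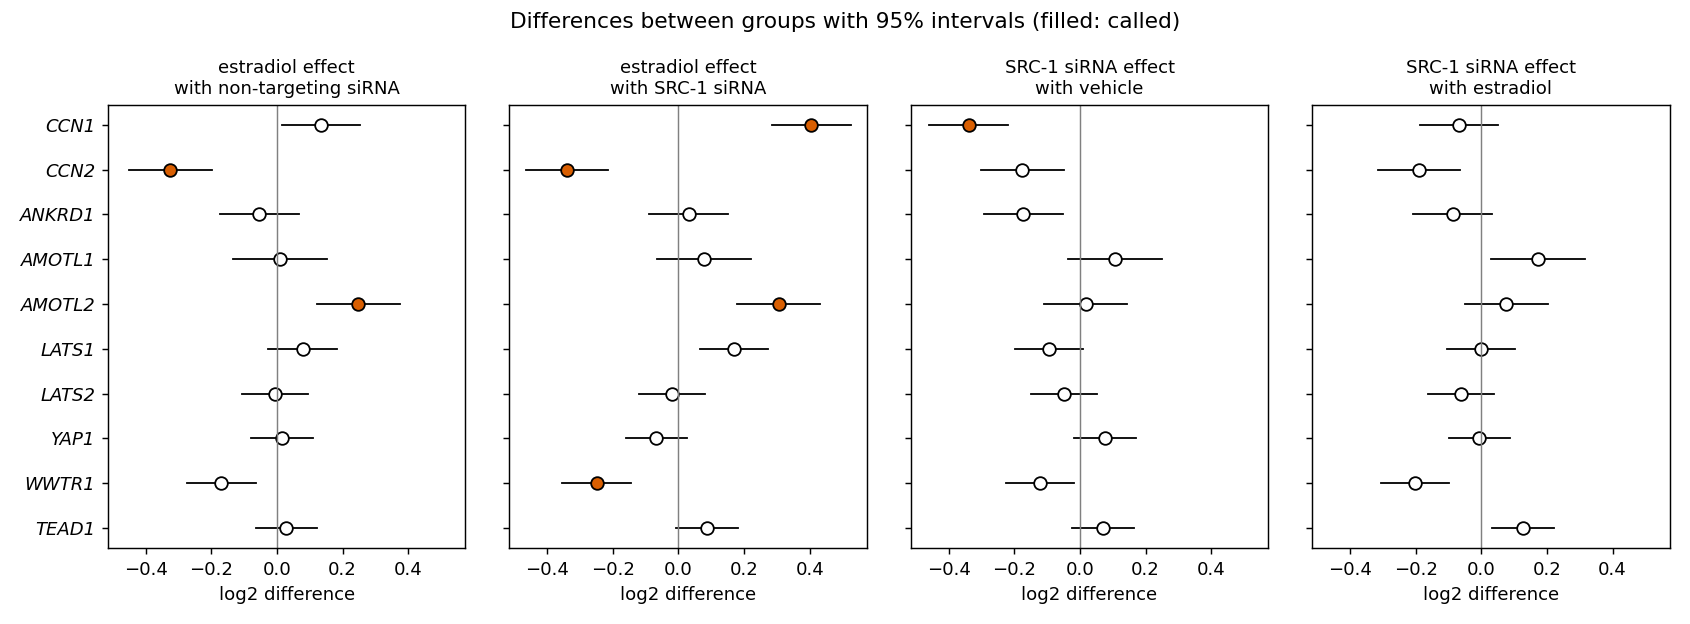
Log2 differences of the 10 genes (horizontal axes) with 95% intervals (lines) in the 4 comparisons of 2 groups, filled where called. CCN1 is filled on opposite sides of 0 for estradiol with SRC-1 siRNA (0.41) and for SRC-1 siRNA with vehicle (-0.34), and CCN2 is filled below 0 in both estradiol comparisons.

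The next comparisons ask what loss of SRC-1 does to the pathway. With vehicle, SRC-1 siRNA lowered 1 of the 10 members, CCN1, where 1.21% of all probe sets were called and 0.945% were called lower. Groups did not overlap for 5 members, against 18.4% of all probe sets. CCN1 read 11.37, 11.31 and 11.30 log2 with non-targeting siRNA against 10.98, 10.95 and 11.03 with SRC-1 siRNA. The groups are far apart relative to their spread, and the difference was -0.34 ± 0.05 (SE; adjusted p = 0.0115), larger than that of 98.5% of all probe sets. The call was lost without vehicle array 1 with non-targeting siRNA (0.0658), without vehicle array 2 with SRC-1 siRNA (0.0541), and in a fit to these 6 arrays alone (0.0563).

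CCN2 and ANKRD1, the other target genes, read lower with SRC-1 siRNA on all 3 vehicle arrays but did not pass. CCN2 differed by -0.18 ± 0.06 log2 (SE; adjusted p = 0.209). ANKRD1 read 12.84, 12.77 and 12.91 log2 with non-targeting siRNA against 12.71, 12.63 and 12.67, a difference of -0.17 ± 0.05 (adjusted p = 0.196). WWTR1 had -0.12 ± 0.05 (0.307) and YAP1 0.08 ± 0.04 (0.506), also with groups that do not overlap. The other 5 members lay between -0.09 and 0.11 log2.

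Under estradiol, limma called 0 of the 10 members for SRC-1 siRNA, where 1.8% of all probe sets were called. At an unadjusted p under 0.05 there were 4 members and 15.8% of all probe sets. Groups did not overlap for 5 members and for 22.3% of all. WWTR1 was the closest to a call, at -0.20 ± 0.05 log2 (SE; adjusted p = 0.0603). CCN2 had -0.19 ± 0.06 (0.129), AMOTL1 0.17 ± 0.07 (0.227) and TEAD1 0.13 ± 0.04 (0.170), all with groups that do not overlap. CCN1 had -0.07 ± 0.05 (0.598), and its estradiol arrays overlapped. WWTR1 was called without estradiol array 2 of the SRC-1 siRNA cells (0.0452), with array weights (0.0460) and without the lowest 40% of probe sets (0.0214). With a trended and robust variance, WWTR1, CCN2 and TEAD1 were called (0.0196, 0.0263 and 0.0391).

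The levels of CCN2 followed 1 order over the 4 groups: 11.43 log2 in vehicle-treated non-targeting cells, 11.25 in vehicle-treated SRC-1 siRNA cells, 11.11 in estradiol-treated non-targeting cells and 10.91 in estradiol-treated SRC-1 siRNA cells. No neighbours in that order overlap. WWTR1 had the same order, at 9.01, 8.89, 8.84 and 8.64 log2, and there the groups at 8.89 and 8.84 overlap. CCN1 ran otherwise, at 11.33, 10.99, 11.46 and 11.39 in that sequence of groups: its SRC-1 siRNA arrays with vehicle lay apart below the rest, and the other 3 groups were within 0.13 log2 of each other. AMOTL2 split by treatment alone, at 8.98 and 8.99 log2 under vehicle and 9.22 and 9.30 under estradiol.

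Whether SRC-1 siRNA alters the estradiol effect was tested as the difference of both effects. No member passed, and 0% of all probe sets did: limma called 0 of 29094, with 2102 at an unadjusted p under 0.05. CCN1 was the 1 member at an unadjusted p under 0.05, with a difference of 0.27 log2 (95% interval 0.10 to 0.44; adjusted p = 0.531). Its call with SRC-1 siRNA and not with non-targeting siRNA is therefore not shown to be a difference between them. For CCN2 the effects were nearly the same size, with a difference of -0.02 (-0.19 to 0.16). AMOTL2 and WWTR1 had 0.06 (-0.12 to 0.24) and -0.08 (-0.23 to 0.07).

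Averaging over the other factor, a step added after these values were seen, uses all 12 arrays for each effect. The averaged estradiol effect was called for 5 members, where 9.96% of all probe sets were: CCN1 at 0.27 ± 0.04 log2 (SE), AMOTL2 at 0.28 ± 0.04 and LATS1 at 0.12 ± 0.03 rose, and CCN2 at -0.33 ± 0.04 and WWTR1 at -0.21 ± 0.03 fell. LATS1 (adjusted p = 0.0391) lost its call in 10 of the 12 fits without 1 array, and the other 4 (adjusted p = 0.00105, 0.00131, 3.16e-04 and 0.00225 in the order named) kept theirs in all 12. The averaged SRC-1 siRNA effect was called for 3 members, all lower, where 5.1% of all probe sets were called. These were CCN1 at -0.20 ± 0.04 log2 (adjusted p = 0.0123), CCN2 at -0.18 ± 0.04 (0.0263) and WWTR1 at -0.16 ± 0.03 (0.0196). CCN2 lost this call in 7 and WWTR1 in 4 of the 12 fits. With the covariate described above, CCN1 kept it (0.0474), CCN2 (0.0979) and WWTR1 (0.0760) lost it, and ANKRD1 was called at -0.17 ± 0.04 log2 (0.0450).

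Of 29 measured upstream kinases and scaffolds, estradiol raised 1 and lowered 2 with either siRNA, beside 2.73% and 6.88% of all probe sets called. The list's median was -0.02 log2 with non-targeting and -0.01 with SRC-1 siRNA, against -0.01 and -0.02 over all probe sets. Groups did not overlap for 12 of the 29 in either comparison, beside 21% and 25.8% of all probe sets. DCHS1, an atypical cadherin that binds FAT4, rose 1.48-fold where SRC-1 was kept and 1.68-fold where it was depleted (0.57 ± 0.06 and 0.75 ± 0.06 log2, SE). FRMD6, a FERM-domain scaffold that promotes Hippo signalling, fell 1.25-fold and 1.23-fold. SAV1, the scaffold of the MST kinases upstream of LATS, fell 1.16-fold and 1.18-fold, but lost the call with non-targeting siRNA in 4 of the 12 fits without 1 array. With the covariate described above, FRMD6 and SAV1 lost both of their estradiol calls, and DCHS1 kept both.

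SRC-1 siRNA raised 1 and lowered 1 gene of the upstream list under either treatment, where 1.21% (vehicle) and 1.8% (estradiol) of all probe sets were called. NF2, which encodes merlin, a membrane activator of the LATS kinases, rose 1.16-fold under vehicle and under estradiol (0.22 ± 0.04 log2, SE, in both; adjusted p = 0.0171 and 0.0157). FRMD6 fell 1.22-fold and 1.20-fold (adjusted p = 0.0090 and 0.0145). FRMD6 therefore fell with estradiol and with SRC-1 siRNA alike, and its group means of 10.88, 10.59, 10.55 and 10.30 log2 stood in the order of CCN2. NF2 lost each of its calls in 5 of the 12 fits without 1 array, and FRMD6 its call under estradiol in 4. With the same covariate, both genes lost the call under estradiol and kept the call under vehicle.

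Of 7 other TEAD and VGLL genes, estradiol raised TEAD3, a relative of TEAD1, 1.19-fold in non-targeting cells and 1.27-fold in SRC-1 siRNA cells. Over all probe sets, 2.73% and 6.88% were called in these comparisons. VGLL3, a TEAD cofactor, fell 1.23-fold and 1.26-fold, and VGLL4, a TEAD cofactor that competes with YAP, fell 1.13-fold with SRC-1 siRNA (adjusted p = 0.0496). VGLL4 lost this call in 10 of the 12 fits without 1 array, VGLL3 its calls in 7 and 3, and TEAD3 its first call in 4. With the covariate described above, none of these estradiol calls was kept. For SRC-1 siRNA, limma called 0 of these 7 under either treatment, where 1.21% and 1.8% of all probe sets were called. Below an unadjusted p of 0.05 were 3 under vehicle and 1 under estradiol, as were 12.7% and 15.8% of all probe sets. TEAD4 had -0.10 and -0.09 log2. In the SRC-1 siRNA effect averaged over both treatments, 1 of the 7 was called, as lower, where 5.1% of all probe sets were called.

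Among other YAP and TAZ targets the calls with estradiol were all lower. A published signature of 22 genes holds 17 beyond the members above, all measured. Estradiol with non-targeting siRNA raised 0 and lowered 2 of them, where 0.873% of all probe sets were lowered, and their median was -0.08 log2, against -0.01 over all: TGFB2, a TGF-beta ligand, fell 1.68-fold and GADD45A, a stress-response gene, 1.30-fold (call lost in 2 of the 12 fits without 1 array). With SRC-1 siRNA it raised 0 and lowered 2, GADD45A (1.37-fold) and the kinase gene NUAK2 (1.16-fold; called in 1 of the 12 fits without 1 array), where 2.39% of all were lowered, with a median of -0.03 against -0.02. TGFB2 then had -0.33 ± 0.09 log2 (SE; adjusted p = 0.0536). With the covariate described above, both GADD45A calls and the NUAK2 call were lost, and the TGFB2 call with non-targeting siRNA was kept.

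SRC-1 siRNA raised MYOF, a membrane-repair gene of the same signature, 1.19-fold under vehicle and 1.26-fold under estradiol, and TGFB2 1.42-fold under estradiol, while it lowered 0 of the 17. Over all probe sets, 1.21% were called under vehicle and 1.8% under estradiol. In the SRC-1 siRNA effect averaged over both treatments, 3 of the 17 were called higher and 1 lower, where 5.1% of all probe sets were called. The median of the 17 was 0.05 log2 under vehicle and 0.03 under estradiol, whereas CCN1, CCN2 and ANKRD1 had values below 0 in both, called only for CCN1 under vehicle. Of the members induced by YAP as a feedback, LATS2 had -0.05 and -0.06 log2 and AMOTL2 0.02 and 0.08, none called. MYOF lost its call under vehicle, and TGFB2 its call under estradiol, in 4 of the 12 fits without 1 array. With the same covariate, both genes lost the call under estradiol, and MYOF kept its call under vehicle.

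Within the CCN family, CCN3 (also NOV), a matricellular protein, was the only other gene called. Like CCN2 it was lower with estradiol, 1.25-fold in non-targeting cells and 1.14-fold in SRC-1 siRNA cells, and lost the second call in 5 of the 12 fits without 1 array. Unlike CCN2, it was called higher in the SRC-1 siRNA effect averaged over both treatments, at 0.13 log2, where 5.1% of all probe sets were called. CCN4, CCN5 and CCN6 were not called in the 4 comparisons of 2 groups. Over all probe sets, 2.73% and 6.88% were called for estradiol with non-targeting and with SRC-1 siRNA. For SRC-1 siRNA the shares were 1.21% under vehicle and 1.8% under estradiol. Of 15 genes driven by SRF and its MRTF cofactors, which share targets with YAP, estradiol raised 1 with either siRNA: FHL2, a LIM-domain cofactor, 2.14-fold and 2.03-fold. Under SRC-1 siRNA, TAGLN, an actin-binding protein, fell 1.39-fold with vehicle and 1.26-fold with estradiol, and CNN1, a calponin, rose 1.36-fold with estradiol. Leaving out 1 array ended the second TAGLN call in 9 and the CNN1 call in 4 of the 12 fits. The covariate described above also ended both of these, and the CCN3 call for estradiol with SRC-1 siRNA. The other CCN3 call, both FHL2 calls and the first TAGLN call were kept with it.

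**Figure D3:**
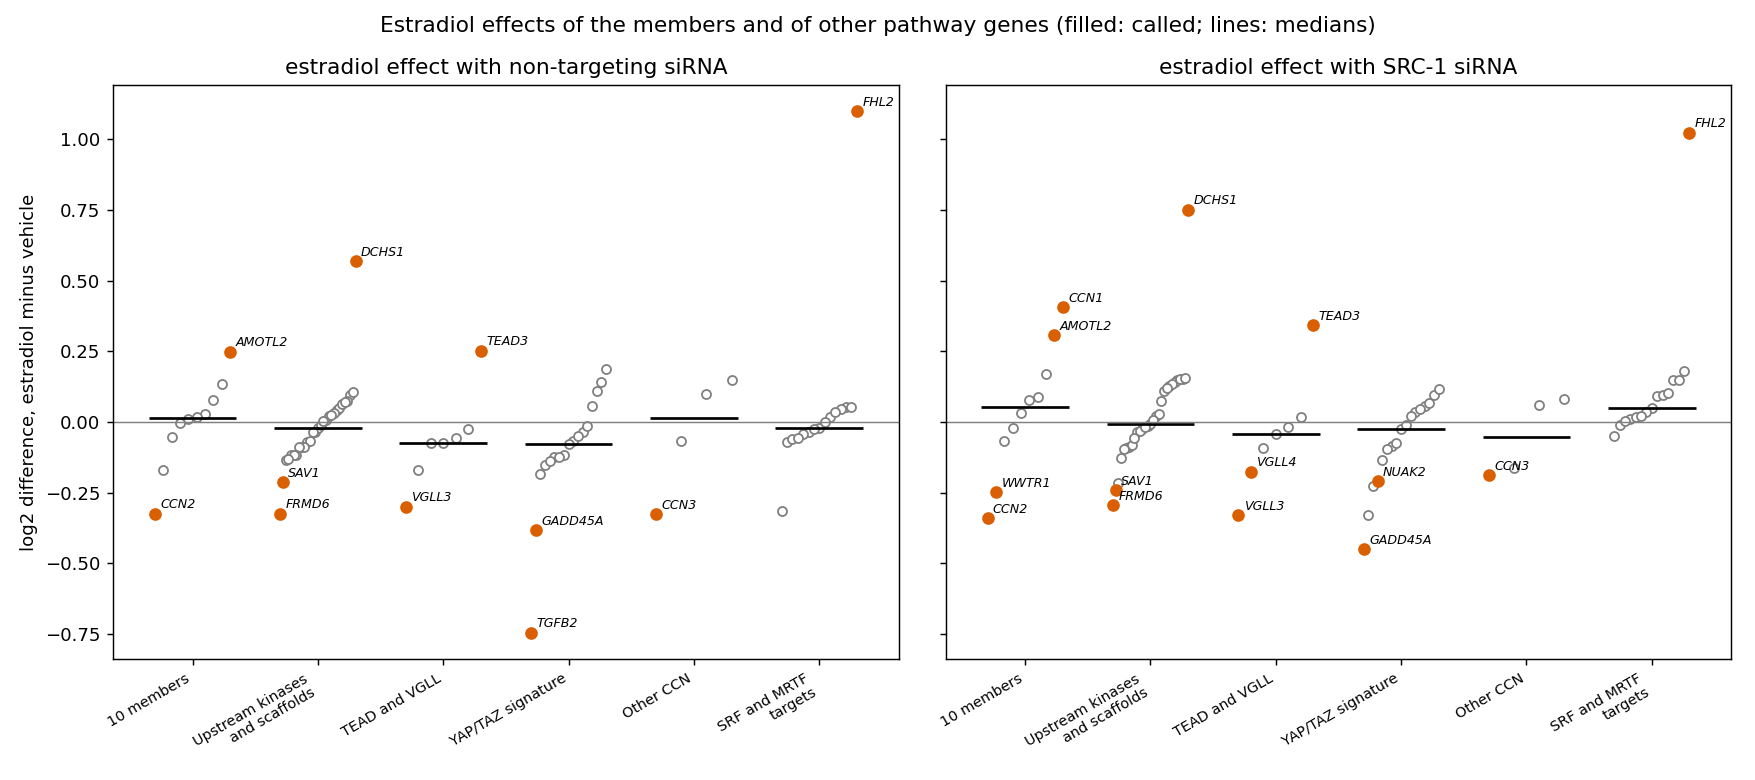
Log2 difference, estradiol minus vehicle (vertical axis), of the 10 members and of the genes of 5 other lists (horizontal axis), with non-targeting siRNA (left) and SRC-1 siRNA (right); filled points are called and lines are list medians. Most genes lie near 0, FHL2 (1.10 and 1.02) and DCHS1 (0.57 and 0.75) stand highest, and CCN1 and CCN2 lie on opposite sides of 0.

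The genes whose levels followed the called members most closely over the 12 arrays were found by Pearson's correlation, as a description: the arrays share the 4 conditions, and any gene with the same group means scores high. CCN2 was closest to GEM, a small GTPase of the RGK family (r = 0.982), SPRY2, an inhibitor of receptor tyrosine kinase signalling (0.976), and EMP1, a membrane protein (0.974). CCN1 was closest to PTK2, which encodes focal adhesion kinase (0.976), RNF111, a ubiquitin ligase (0.970), and SIRPA, the receptor for CD47 (0.968). AMOTL2 was closest to TENT4A, ABHD5 and OTUD7B (0.969, 0.960 and 0.956), and WWTR1 to SEMA7A, MYADM and BMP6 (0.958, 0.949 and 0.948).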

How the data were processed

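Expression came as deposited log2 values, 1 per probe set and array, which the authors made from CEL files with the affy package, per the labels and the design text; versions, background correction, normalization and summarization are not given in the sources used here. No further normalization was applied. The table holds 33297 probe sets; 4203 whose identifiers precede every gene-annotated one were inferred to be controls and left out. Gene names came from the platform annotation, and each gene is read from its probe set of highest mean. The model, in limma 3.58.1 (R 4.3.3), had a mean for each group and took in all 12 arrays; tests were two-sided over 29094 probe sets, and empirical Bayes moderation used 3.15 prior and 8 residual degrees of freedom. The call rule is that of the design text. In simulated data, 60, 76 and 64 of the 29094 probe sets had changes of 0.2, 0.4 and 0.7 log2 in the estradiol effect with non-targeting siRNA. Of these, 6.67%, 67.1% and 87.5% were found, so most changes of 0.2 log2 were missed there. The data had more calls in that comparison (793), which alters the adjustment, so these rates need not hold for the members.

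Members and gene lists were chosen with earlier results of these data known. Named genes are all members, up to 4 called genes per pathway or target list and comparison, or up to 2 of the highest mean where none is called, the markers that were called (named after their values were seen), and the 3 probe sets most correlated with each called member. Other settings were a replicate block, other normalization, filters, variances and thresholds, and each array left out. Precision is limited by the number of arrays. The GSK3 siRNA that the design text names is not analysed here.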

Additional observations from a re-analysis of the deposited data

How the results depend on the processing

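No called difference of a member or list gene changed sign under any alternative run. For estradiol with non-targeting siRNA, where 2 members were called, the count was 1 with the replicate block, with only the compared arrays, with renewed quantile normalization, with median centring, with all probe sets tested and at an adjusted p under 0.01, 0 with the control covariate, and 1 to 2 without 1 array. CCN2 was the call kept in each of these but the covariate fit. For estradiol with SRC-1 siRNA the count of 4 became 0 with the covariate and was 4 to 5 without 1 array. For SRC-1 siRNA with vehicle the count of 1 became 0 with the compared arrays only and at an adjusted p under 0.01, 2 when the variance was trended and robust, and 0 to 1 without 1 array. For SRC-1 siRNA with estradiol the count of 0 became 1 with the replicate block, without the lowest 40% of probe sets and with array weights, 3 with the trended and robust variance, and 0 to 1 without 1 array. The averaged estradiol count of 5 became 0 with the covariate and was otherwise 4 to 5. The averaged SRC-1 siRNA count of 3 became 5 without the lowest 40% and with the trended and robust variance, 0 at an adjusted p under 0.01, and 1 to 4 without 1 array. The count for the difference of the estradiol effects was 0 in every fit run. Arrays of the same number in different groups deviated together with correlations from -0.03 to 0.21, 6 of 18 pairs were over 0.1, and 10 of 12 arrays correlated best with an array of their own number. Arrays of different numbers had -0.26 to 0.11. These values are a hint of pairing from the data. The labels name nothing that arrays of a number share, and not every pair was over 0.1, so the replicate block stands as an alternative. It ended the AMOTL2 call for estradiol with non-targeting siRNA (adjusted p = 0.0819) and gave the WWTR1 call for SRC-1 siRNA with estradiol (0.0497). No member has another probe set, so that choice could not be varied. Signal over background was not measured.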
